A study of Curvularia clavata with 15 samples.

Results

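A set of 196 genes of the filamentous fungus Curvularia clavata, of 10170 measured, had higher transcript levels in a mutant lacking rpn-4 than in the wild type on lignosulfonate medium, while their levels in mutants lacking CclaeA or tah-1 stayed near the wild type. The members were chosen by their measured levels. Each library was scaled by its median-of-ratios size factor, the 3 libraries of a group were averaged, and the difference between a mutant and WT on lignosulfonate was taken on the log2(mean scaled FPKM + 1) scale. A member had a difference of at least 1.5 in Δrpn-4 and differences strictly between -1 and 1 in both ΔCclaeA and Δtah-1. Genes with at least 10 FPKM in all 3 libraries of one WT medium and under 1 FPKM in all 3 of the other were dropped beforehand. These differences are therefore a description of the set. Calls made on the same contrasts follow from the choice of members and are no independent test of them.

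In budding yeast, Rpn4 activates the genes of the proteasome, the protease complex that degrades ubiquitin-tagged proteins, and it is itself a short-lived substrate of that complex. LaeA proteins of filamentous fungi, first studied in Aspergillus, are regulators of secondary metabolism. The deposited values pair no gene ID with a name or product, so the members are given by ID, no role is stated for any of them, and the levels of the deleted genes could not be used to check the genotype labels.

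The groups were 3 deletion mutants, Δrpn-4, ΔCclaeA and Δtah-1, and the wild type (WT), all of strain J1, with 3 libraries each, grown on 2% lignosulfonate with 0.25% glucose. The last group was WT on 2% glucose, again with 3 libraries. Mycelia of all groups grew for 4 days at 30 °C in 100 mL of shaken Vogel's minimal medium, in which lignosulfonate is a water-soluble sulfonated lignin. Whether libraries of the same group were grown as separate cultures is not in the labels. The p-values then cover just the spread among these libraries, part of which may be technical. The number of isolates behind each mutant is not given there either.

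The files hold FPKM, fragments per kilobase of transcript and per mapped depth, for the same 10170 IDs in all 15 libraries. The FPKM sum per library ran from 662880 to 1186753, and relative depth, read from the smallest steps of low values, from 0.709 to 1.16 of the median library. As deposited, Δrpn-4 against WT on lignosulfonate had a median log2 ratio of -0.79 over the 9265 tested IDs, and after scaling it was -0.01, so levels below are scaled FPKM unless stated. Without scaling 44 IDs met the rule, 38 of them among the 196 members. The limit of 1.5 itself was passed by 4.68% of all tested IDs after scaling. All 196 members had a higher mean in Δrpn-4 than in WT on lignosulfonate in the deposited FPKM too, 51 of them by at least 1.5 on the log2 scale. The first count follows from the rule, since scaling moved the median ratio from -0.79 to -0.01, less than the limit of 1.5. The WT file headers name FPKM and those of all 3 mutants name no unit, so a difference between these kinds of file and one between mutant and WT cannot be told apart.

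By their median, the members were moderately expressed in WT and more abundant in Δrpn-4, the rise that the rule asked for. Their median level was 183 scaled FPKM in Δrpn-4, 42.7 in ΔCclaeA, 43.2 in Δtah-1, 43.3 in WT on lignosulfonate and 38.2 in WT on glucose. The middle 50% of members lay between 78.8 and 482 in Δrpn-4 and between 18.7 and 104 in WT on lignosulfonate. All tested IDs had medians between 30.5 and 31.2 in the 5 groups, a near equality that the scaling sets. Levels in Δrpn-4 ran from 2.34 to 5958 scaled FPKM, and 23 members averaged over 1000 there, among 156 such IDs in the whole list. Because these are bulk libraries, a change in the share of cells and one in the RNA per cell cannot be told apart.

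**Figure D1:**
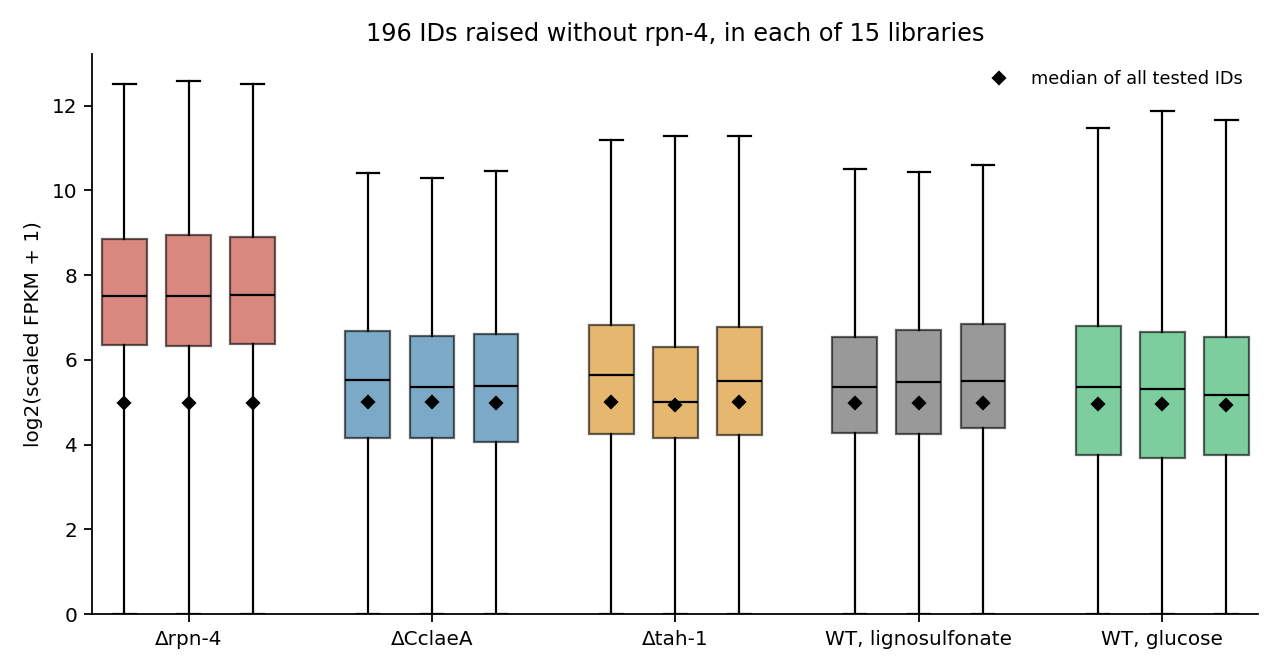
Levels of the 196 members in each of the 15 libraries, as log2(scaled FPKM + 1). Boxes span the middle 50% of members with the median as a line, whiskers reach the lowest and highest member, and diamonds mark the median of all 9265 tested IDs. The 3 Δrpn-4 libraries have member medians of 181 to 183 scaled FPKM, while those of the other 12 lie between 31.1 and 49.3.

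Summed over the members, the Δrpn-4 libraries held 86289, 89328 and 86969 scaled FPKM, and the WT lignosulfonate libraries held 15709, 17217 and 18633. The sums were 16482, 15924 and 16169 in ΔCclaeA, 19671, 16022 and 20010 in Δtah-1 and 28520, 30795 and 25835 in WT on glucose. As a share of each library's deposited FPKM sum, which scales the libraries to equal sums, the members made up 5.91% ± 0.0639 in Δrpn-4. The share in WT on lignosulfonate was 2.35% ± 0.141 (SD, n = 3 each). In proportion, the rise in this share was smaller than that in the summed scaled FPKM. Replicates of Δrpn-4 lay close together, with a median SD over members of 0.08 on the log2 scale, against 0.16 in WT on lignosulfonate. Over all tested IDs the same SDs were 0.11 and 0.15. Δtah-1 had the widest spread, 0.27 for the members and 0.24 for all tested IDs, and its replicate 2 had a member median of 31.1 against 49.3 and 44.5 in replicates 1 and 3. Leaving that library out gave 191 members, of which 183 were among the 196.

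In Δrpn-4 the differences from WT on lignosulfonate had a median of 1.85, with the middle 50% between 1.66 and 2.36. They lay under 2 for 119 members, from 2 to below 3 for 55, from 3 to below 4 for 18, and at 4 or more for 4. In ΔCclaeA the median difference was -0.05, above 0 for 88 members and below 0 for 106, and in Δtah-1 it was -0.05, above 0 for 86 and below 0 for 108. Taken singly, 125 members were within 0.5 of WT in ΔCclaeA and 114 in Δtah-1. In both mutants at once, 77 of the 196 were within 0.5, and the others lay further out in at least 1 of them. In 177 of the 196 members every Δrpn-4 library lay above all 12 other libraries, glucose included, as it did for 10.7% of all tested IDs. The rule largely sets this count, because it asks for a high level in Δrpn-4 and bounds the other mutants. Nothing is read from the gap between the shares, and the 196 also include members outside the tested IDs.

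The limits cut through a continuous range. Just inside the limit of 1.5 stood yc1106_03580 at 1.513 and yc1106_03662 and yc1106_01582 at 1.519, and just outside stood yc1106_08063 at 1.498, yc1106_04124 at 1.493 and yc1106_02290 at 1.475. In yc1106_03662, 115, 122 and 117 scaled FPKM in Δrpn-4 stood against 40.7, 35.9 and 44.7 in WT on lignosulfonate. The excluded yc1106_08063 had 199, 189.9 and 181 in Δrpn-4 and 68.6, 62.1 and 69.1 in WT, close to those of a gene just inside the limit in the size of the step. At the other limits, yc1106_07929 was kept at -0.9998 in ΔCclaeA and yc1106_01208 left out at 1.007, and yc1106_04280 was kept at 0.997 in Δtah-1 and yc1106_08711 left out at -1.008. The last, with 5390.4 scaled FPKM in Δrpn-4 and 691 in WT on lignosulfonate, missed the set by this margin.

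The rule set the members apart from other IDs that passed the Δrpn-4 limit. Of 437 such IDs, 200 lay within the limits in both other mutants, and 4 of these were dropped as switched between the WT media. The other patterns were at least 1 higher in Δtah-1 and within in ΔCclaeA for 91 IDs, at least 1 lower in both for 48, and lower in just ΔCclaeA or just Δtah-1 for 31 IDs each. ΔCclaeA alone was higher for 16 IDs, both were higher for 7, and the 2 mutants differed in opposite directions for 11 and 2.

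**Figure D2:**
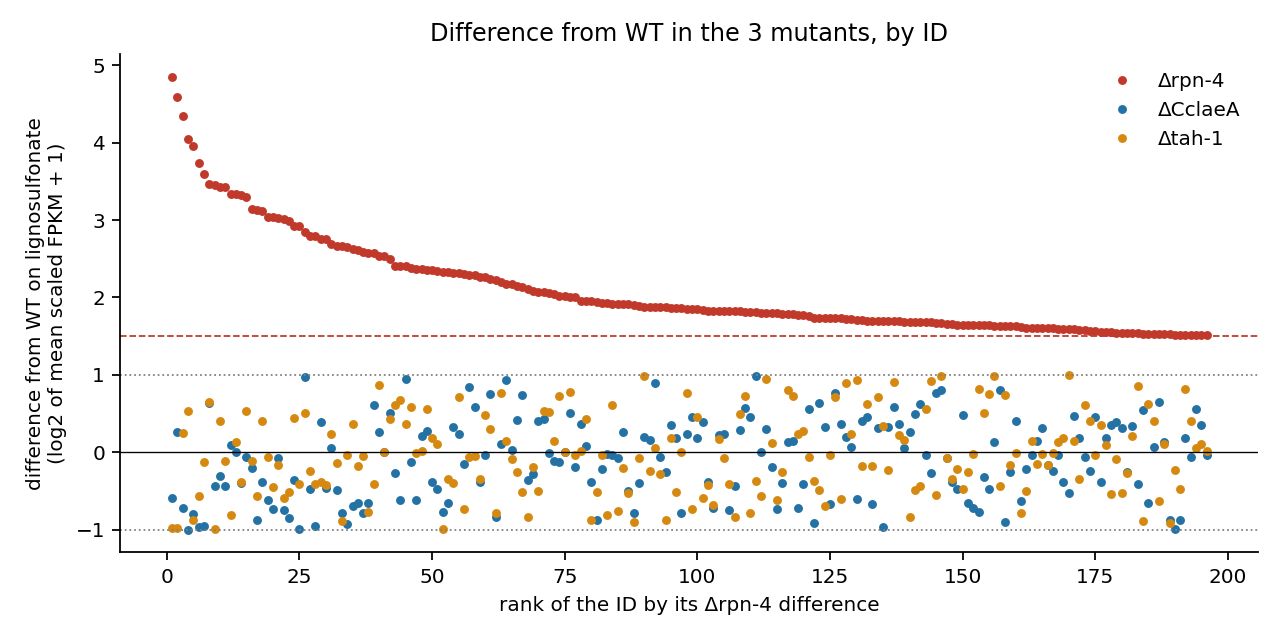
Difference of each of the 196 members from WT on lignosulfonate, on the log2(mean scaled FPKM + 1) scale, ordered by the Δrpn-4 value on the horizontal axis. The dashed line is the limit of 1.5 for Δrpn-4 and the dotted lines are the limits of 1 and -1 for ΔCclaeA and Δtah-1. The Δrpn-4 values fall from 4.85 to 1.51 with no gap near the limit, and those of the other mutants fill the band between -1 and 1.

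The member with the largest difference was yc1106_10158, at 4.85. It had 338, 335 and 329 scaled FPKM in Δrpn-4, 6.80, 7.45 and 6.03 in ΔCclaeA, 5.57, 3.61 and 5.48 in Δtah-1, 9.34, 11.4 and 11.3 in WT on lignosulfonate and 0.929, 0.294 and 0.214 in WT on glucose. It was at a lower level in every group except Δrpn-4, and its Δtah-1 difference of -0.98 nearly took it out of the set. In WT it was higher on lignosulfonate than on glucose (log2 ratio 3.0 ± 0.18 SE, adjusted p = 1.23e-09 by limma). It also came close to being dropped as switched between the WT media. Its glucose replicate 1 alone was not under 1 deposited FPKM. Second came yc1106_08468, at 4.59, which unlike the first was well expressed in WT on both media. Its levels were 2160.5, 2268 and 2159 scaled FPKM in Δrpn-4, 103, 108 and 114 in ΔCclaeA, 49.4, 40.3 and 45.7 in Δtah-1, 68.6, 87.9 and 113 in WT on lignosulfonate and 97.0, 79.7 and 57.0 in WT on glucose. The WT libraries on the 2 media overlapped, and the Δtah-1 libraries lay below all others.

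yc1106_03659 reached 4051, 3647 and 3839.6 scaled FPKM in Δrpn-4, against 158, 202 and 207 in WT on lignosulfonate, a difference of 4.34. In ΔCclaeA it had 119.8, 110.0 and 113, in Δtah-1 198, 267 and 211 and in WT on glucose 22.3, 20.9 and 26.1. The order of its groups was thus Δrpn-4, then Δtah-1 and WT on lignosulfonate with overlapping libraries, then ΔCclaeA, then WT on glucose. The same order, with a smaller span, held for yc1106_07929, with 1030.4, 932 and 967 scaled FPKM in Δrpn-4, 28.5, 29.6 and 27.6 in ΔCclaeA, 74.7, 102 and 76.0 in Δtah-1, 48.3, 59.9 and 66.3 in WT on lignosulfonate and 11.0, 13.1 and 13.8 in WT on glucose, except that its Δtah-1 libraries all lay above those of WT.

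For yc1106_06104, at 3.95, the Δrpn-4 libraries had 1762, 1587 and 1592 scaled FPKM and the WT lignosulfonate libraries 88.5, 85.1 and 143. Levels were 55.1, 69.3 and 56.1 in ΔCclaeA, 63.4, 32.7 and 74.1 in Δtah-1 and 44.2, 54.4 and 40.4 in WT on glucose. The WT lignosulfonate libraries lay above all those of ΔCclaeA, Δtah-1 and WT on glucose. yc1106_08631, at 3.74, was near the floor outside Δrpn-4. It had 34.6, 28.5 and 33.5 scaled FPKM in Δrpn-4, 0.448, 0.276 and 0.0851 in ΔCclaeA, 0.161, 0.923 and 0.989 in Δtah-1, 0.898, 1.60 and 1.96 in WT on lignosulfonate and 0.126, 0.944 and 1.56 in WT on glucose. At levels this low the added 1 in the log2 scale understates the ratio.

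**Figure D3:**
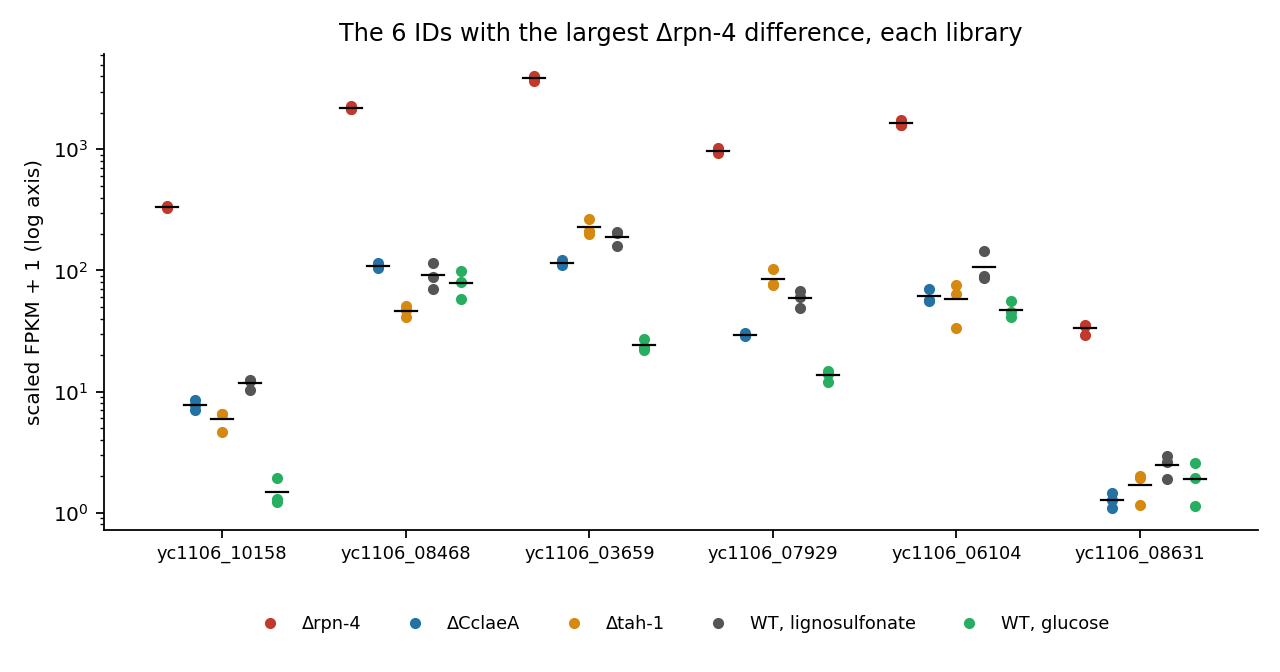
Scaled FPKM + 1 (log axis) of the 6 members with the largest Δrpn-4 difference, with a point for each library and a line at the mean of each group of 3. In all 6 the Δrpn-4 points lie above every other point, from 28.5 scaled FPKM in yc1106_08631 to 4051 in yc1106_03659.

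The most abundant members in Δrpn-4 were yc1106_08869, yc1106_03659, yc1106_08463 and yc1106_04825. yc1106_08869 led with 5848, 6149 and 5877 scaled FPKM in Δrpn-4, 1365, 1253 and 1398 in ΔCclaeA, 2342, 2491 and 2488 in Δtah-1, 1454, 1391 and 1557 in WT on lignosulfonate and 2840.5, 3775 and 3214 in WT on glucose. It was abundant everywhere, and the Δtah-1 and glucose libraries lay between those of WT on lignosulfonate and Δrpn-4. yc1106_08463 showed 3844, 3324 and 3463 scaled FPKM in Δrpn-4, 371, 362 and 371 in ΔCclaeA, 403, 412 and 485 in Δtah-1, 453, 518 and 565 in WT on lignosulfonate and 973, 1069 and 1044 in WT on glucose. Again glucose came second. yc1106_04825 was the least even of the 4, with 2702, 2994 and 2715 in Δrpn-4 but 579.6, 173 and 522 in Δtah-1, where replicate 2 stood apart. Its other groups had 261, 234 and 240.2 in ΔCclaeA, 251, 294 and 422 in WT on lignosulfonate and 115, 143 and 84.3 in WT on glucose.

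A further comparison asked how the members stand between the lignosulfonate and the glucose medium in WT, which differ in both lignosulfonate and glucose content. The rule used this contrast only to drop switched genes, but the 3 WT lignosulfonate libraries also chose the members, so the counts are a description. Of the 193 members that passed the expression filter, 42 were called higher on lignosulfonate, which is 21.8%, beside 22.7% of all tested IDs. Another 35 members, 18.1%, were called lower on lignosulfonate, beside 18.1% of all tested IDs (limma, adjusted p under 0.05 and at least 2-fold). The remaining 116 were not called. The members had a median log2 ratio of 0.19, with the middle 50% between -0.68 and 0.83, against a median of 0.00 over all tested IDs. Both shares were near the background and so are no result about the members.

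**Figure D4:**
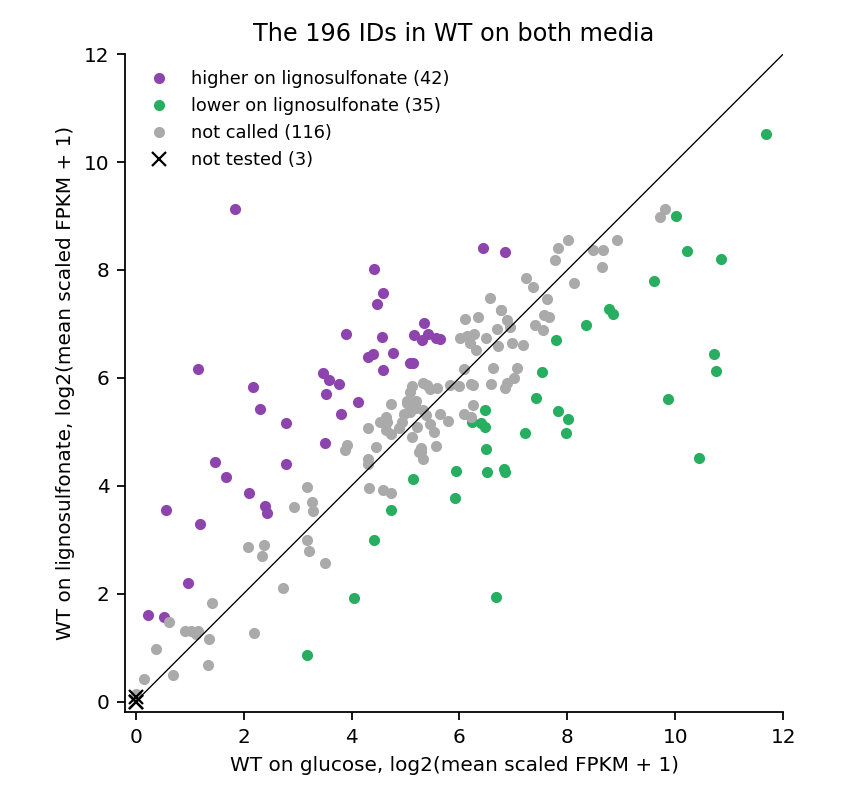
Mean levels of the 196 members in WT on lignosulfonate (vertical) and on glucose (horizontal), both as log2(mean scaled FPKM + 1), with the line of equal levels. Points are coloured by the call between the media, 42 higher on lignosulfonate, 35 lower and 116 not called, and crosses mark the 3 members not tested. The members spread to both sides of the line.

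The members with the largest rise on lignosulfonate were yc1106_08064, yc1106_01380 and yc1106_08893. yc1106_08064 had 543, 547 and 588 scaled FPKM in WT on lignosulfonate and 3.15, 2.68 and 1.98 on glucose (log2 ratio 7.29 ± 0.12 SE, adjusted p = 1.64e-15 by limma). It was higher still in Δrpn-4, at 1778, 1883 and 1841, with 691, 807 and 712 in ΔCclaeA and 471, 535 and 479 in Δtah-1. The ID before it, yc1106_08063, was also higher on lignosulfonate by a smaller factor, with 68.6, 62.1 and 69.1 on lignosulfonate and 3.37, 1.40 and 2.51 on glucose, and missed the rule by the margin given above. yc1106_01380 had 68.2, 62.3 and 82.0 scaled FPKM in WT on lignosulfonate and 0.929, 1.32 and 1.43 on glucose (log2 ratio 5.01 ± 0.20 SE, adjusted p = 1.17e-11 by limma), and 218, 193 and 205 in Δrpn-4. In ΔCclaeA it had 39.0, 34.5 and 31.9, all below WT, and in Δtah-1 41.8, 85.0 and 53.9. For yc1106_08893 the WT libraries were uneven, 42.3, 81.2 and 43.2 on lignosulfonate and 5.66, 2.85 and 1.98 on glucose (log2 ratio 3.67 ± 0.33 SE, adjusted p = 1.38e-07 by limma). Its Δrpn-4 libraries were even, at 171, 173 and 178.

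The largest falls on lignosulfonate were those of yc1106_08147, yc1106_08199 and yc1106_03777. yc1106_08147 had 20.6, 23.3 and 21.3 scaled FPKM in WT on lignosulfonate and 1656, 1616 and 904 on glucose (log2 ratio -5.89 ± 0.18 SE, adjusted p = 7.03e-13 by limma). Its level in Δrpn-4, 70.0, 85.3 and 81.9, lay above WT on the same medium and far below WT on glucose, and it was 24.9, 24.3 and 28.5 in ΔCclaeA and 22.1, 18.9 and 21.1 in Δtah-1. yc1106_08199 followed the same order at lower levels, with 3.02, 2.44 and 3.10 on lignosulfonate and 92.5, 84.4 and 127 on glucose in WT (log2 ratio -4.71 ± 0.16 SE, adjusted p = 1.61e-12 by limma) and 14.6, 12.2 and 12.7 in Δrpn-4. So did yc1106_03777, with 66.6, 76.4 and 62.4 on lignosulfonate, 1841, 1682 and 1651 on glucose (log2 ratio -4.64 ± 0.18 SE, adjusted p = 1e-11 by limma) and 195, 203 and 200.2 in Δrpn-4. In these 3 genes the level in Δrpn-4 did not reach that of WT on glucose in any library.

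Set against WT on glucose, Δrpn-4 was called higher for 154 of the 193 tested members and lower for 5, beside 25.5% and 19.1% of all tested IDs. The Δrpn-4 libraries chose the members for a high level, so nothing is read from either count. The 5 that were lower were yc1106_08147, yc1106_08199 and yc1106_03777, already described, and yc1106_05539 and yc1106_09360. yc1106_05539 had 262, 288 and 279 scaled FPKM in Δrpn-4, 78.2, 96.7 and 83.7 in WT on lignosulfonate and 1976, 1804 and 1290.4 in WT on glucose. yc1106_09360 had 136, 145 and 139 in Δrpn-4, 49.0, 46.1 and 48.0 in WT on lignosulfonate and 874, 884 and 1044 in WT on glucose. For comparison, the 35 members lower on lignosulfonate had median levels of 144 in Δrpn-4, 35.5 in WT on lignosulfonate and 170 scaled FPKM in WT on glucose. The 42 members higher on lignosulfonate had median levels of 252 scaled FPKM in Δrpn-4, 68.2 in WT on lignosulfonate and 12.8 in WT on glucose. Both groups were picked by their WT levels and the rule asked for the rise in Δrpn-4, so nothing is read from these medians. These contrasts share libraries, so their counts are not independent of one another. With FPKM as deposited, 10 members in place of 5 were lower in Δrpn-4 than in WT on glucose, and with rescaling to equal sums also 10.

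The last comparison set Δtah-1 against ΔCclaeA, whose levels come from neither the Δrpn-4 nor the WT libraries, although the size factors and the spread behind the tests were estimated over all 15 libraries and the rule holds each mutant within 1 of WT on lignosulfonate. Of the 193 tested members, 12 were called higher in Δtah-1, 6.22%, beside 18.0% of all tested IDs, and 15 lower, 7.77%, beside 14.6%. The rule itself limits how far these 2 mutants can differ. The largest rise was that of yc1106_00351, with 373, 458 and 455 scaled FPKM in Δtah-1 and 145, 123 and 144 in ΔCclaeA (log2 ratio 1.63 ± 0.19 SE, adjusted p = 3.11e-06 by limma). Its WT lignosulfonate libraries, at 246, 189.9 and 334, lay between the 2 mutants, and its Δrpn-4 libraries above all, at 899.5, 689 and 792. yc1106_04679 behaved alike, with 35.2, 37.6 and 43.9 in Δtah-1 and 11.7, 13.0 and 11.8 in ΔCclaeA (log2 ratio 1.59 ± 0.13 SE, adjusted p = 7.92e-08 by limma), 24.5, 20.7 and 19.4 in WT on lignosulfonate and 79.9, 62.5 and 67.1 in Δrpn-4.

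In the other direction, yc1106_04689 had 36.2, 14.7 and 39.1 scaled FPKM in Δtah-1 and 85.2, 79.3 and 71.7 in ΔCclaeA (log2 ratio -1.47 ± 0.26 SE, adjusted p = 0.000184 by limma). WT on lignosulfonate, at 37.0, 37.4 and 43.1, overlapped Δtah-1 here, and Δrpn-4 had 139, 137 and 144. yc1106_09360 had 28.4, 22.1 and 25.4 in Δtah-1 and 67.0, 72.6 and 71.7 in ΔCclaeA (log2 ratio -1.45 ± 0.11 SE, adjusted p = 2.69e-08 by limma). All 5 groups of this gene were separate, in the order Δtah-1, WT on lignosulfonate, ΔCclaeA, Δrpn-4 and WT on glucose from low to high. The lower count in this contrast moved with both other scalings, and the higher count mainly with FPKM as deposited. FPKM as deposited gave 6 higher and 31 lower members, around a median over all tested IDs of -0.21. Rescaling to equal sums gave 11 higher and 24 lower.

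The 3 contrasts that the rule used give no independent test of the members, and nothing is read from their calls. In Δrpn-4 against WT on lignosulfonate, where the rule asked for a difference of at least 1.5, the calls were 193 higher and 0 lower of 193 tested members, with 9.71% and 3.21% of all tested IDs called. None of the 193 was called different in ΔCclaeA, beside 4.35% higher and 7.08% lower over all tested IDs. A call needs at least 2-fold, and the rule holds these differences within 1 on its log2 scale. Members without a call could still differ by less. Examples in ΔCclaeA were yc1106_07874 (log2 ratio -0.77, adjusted p = 1.14e-05 by limma) and yc1106_08838 (log2 ratio 0.94, adjusted p = 0.000434 by limma). In Δtah-1, yc1106_04280 and yc1106_09975 were called higher and yc1106_09000 lower, beside 12.5% and 8.79%. The fit averages logarithms, whereas the rule takes the logarithm of the average.

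Some members rest on little signal. A mean under 10 scaled FPKM was found for 31 members in WT on lignosulfonate and for 18 in Δrpn-4, while 52 exceeded 100 in WT on lignosulfonate. Of the 196 members, 7 were listed at 0 in at least 1 library and 3 did not pass the filter of at least 1 FPKM in at least 3 libraries. Of the 193 that passed, 3 did so through their Δrpn-4 libraries. yc1106_07119 was listed at 9.21, 0 and 0 scaled FPKM in the Δrpn-4 libraries and at 0 in all 12 others. yc1106_07486 was likewise listed at 0, 0 and 14.3 in Δrpn-4 and at 0 in all 12 others. Each of these 2 members owes its place to a single library. The third untested member, yc1106_01899, had 2.81, 1.34 and 2.89 in Δrpn-4 and 0.138, 0 and 0.0425 in WT on lignosulfonate, and was listed at 0 in the other 9 libraries.

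Several members carried consecutive ID numbers. The numbers run without a gap from the first ID to the last, but nothing in the files or labels tells whether they follow the order of genes in the genome. There were 20 runs of 2 or more members, holding 42 members in all, 19 of them pairs and the longest a run of 4. The run of 4, yc1106_07146 to yc1106_07149, joined genes of very different abundance. yc1106_07146 had 1362, 1518 and 1438 scaled FPKM in Δrpn-4 and 301, 340.2 and 376 in WT on lignosulfonate, with 280 ± 11.1 in ΔCclaeA, 296 ± 22.4 in Δtah-1 and 225 ± 10.5 in WT on glucose (SD, n = 3 each). yc1106_07147 had 53.0, 49.8 and 59.7 in Δrpn-4 and 12.2, 11.3 and 10.8 in WT on lignosulfonate. yc1106_07148 had 27.3, 27.7 and 33.5 in Δrpn-4 and 7.83, 5.09 and 5.89 in WT on lignosulfonate. The differences of these 3 were alike, at 2.08, 2.15 and 2.07.

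yc1106_07149, the last of the run, had 1138, 899 and 808 scaled FPKM in Δrpn-4 and 293, 240.1 and 348 in WT on lignosulfonate, a difference of 1.69. On glucose it stood at 1512, 2223 and 1766, so that it fell on lignosulfonate in WT (log2 ratio -2.64 ± 0.23 SE, adjusted p = 1.01e-07 by limma). Within the same run yc1106_07147 rose on lignosulfonate (log2 ratio 1.28 ± 0.23 SE, adjusted p = 0.00019 by limma). The run therefore did not move as a unit between the media. The ID before the run, yc1106_07145, also had a difference of 1.88 in Δrpn-4 but was left out for its ΔCclaeA value of -1.60, whereas the 4 IDs after the run had differences between -0.59 and -0.21.

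The pair yc1106_08468 and yc1106_08469, the pair with the largest mean difference, combined the second-ranked member with a gene of 865, 904 and 863 scaled FPKM in Δrpn-4 and 127, 115 and 165 in WT on lignosulfonate. It had 151, 122 and 150.0 in ΔCclaeA, 167, 139.9 and 172 in Δtah-1 and 63.2, 71.9 and 69.0 in WT on glucose. The IDs on either side, yc1106_08467 and yc1106_08470, differed by 0.07 and -0.59 in Δrpn-4. Further out, yc1106_08464, yc1106_08466 and yc1106_08471 differed by 1.15, 0.80 and 1.29. There yc1106_08465, yc1106_08472 and yc1106_08473 differed by -0.10, 0.23 and -0.63. The members yc1106_08462 and yc1106_08463, also a pair, stand shortly before in the numbering. The pair with the next largest mean difference, yc1106_07486 and yc1106_07487, includes a gene listed above 0 in a single library.

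**Figure D5:**
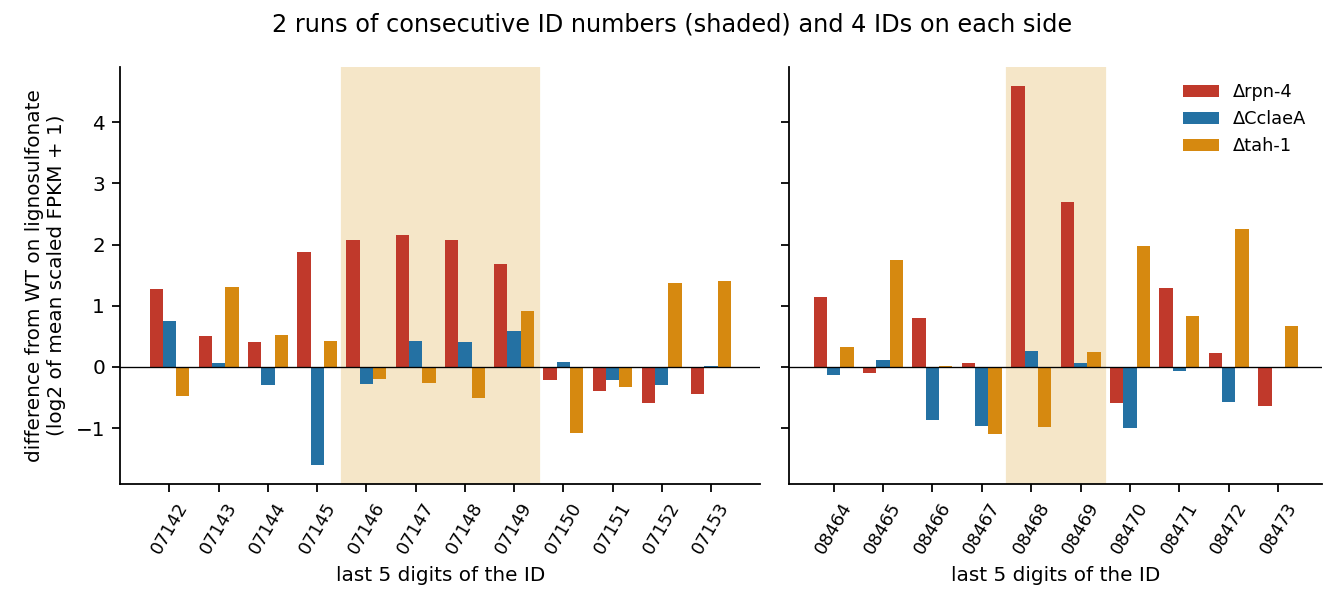
Difference from WT on lignosulfonate, as log2 of mean scaled FPKM + 1, in each mutant for the 4-member run (left) and the pair with the largest mean difference (right), with 4 IDs on each side. Shaded IDs are members, with Δrpn-4 differences of 1.69 to 2.15 on the left and of 4.59 and 2.69 on the right.

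Across all members, 326 tested IDs that are not members stood directly before or after a member in the numbering. Their median Δrpn-4 difference was 0.25, beside -0.03 for all 9072 tested IDs that are not members. At least 1 was reached by 62 of the 326, 19.0%, beside 7.86% of those 9072. Overlap of neighbouring transcripts, and reads shared between them, were not tested.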

How the data were processed

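RNA-seq libraries of mycelia came as 15 processed files, 3 in each of 5 groups, grouped by the sample titles. Values are FPKM, per the file headers of the 6 WT libraries; the 9 mutant headers give no unit, but their values look alike in form and range. Tools listed without roles in the submitters' processing notes are RSEM (1.3.3), DESeq2, HISAT2 (2.1.0) and fastp (0.19.5). Neither the genome build nor the annotation is named in the labels or headers. Read totals are unknown from FPKM. Relative depths were fitted to 105 pairs of libraries, of which 84.8% lay within 0.05 on the log2 scale of the fit.

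Size factors were medians of ratios over the 8858 IDs above 0 in every library, and FPKM were divided by them. IDs with at least 1 deposited FPKM in at least 3 libraries, 9265, were tested on log2(scaled FPKM + 1), a scale that understates changes of low genes. A mean per group was estimated over the 15 libraries together in limma (version 3.58.1, R 4.3.3) with the trend and robust options. Calls needed a Benjamini-Hochberg adjusted p under 0.05 over all tested IDs and at least 2-fold. The procedure was tested on simulated data with independent noise and changes planted in genes above a minimum level. Changes in low genes, shared batches and a shift between scalings were not simulated. The rest used pandas (2.3.3), matplotlib (3.10.9) and NumPy (2.4.6) in Python 3.11.15.

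The members, the lists and the tests were chosen with earlier results of these data known. IDs named were the 6 members with the largest Δrpn-4 difference, the 4 most abundant there, those nearest the limits, the extreme calls between media (3 each way) and between Δtah-1 and ΔCclaeA (2 each way), and the longest runs of IDs, with ties among pairs broken by the mean Δrpn-4 difference. Other IDs were named after their values were seen. Product lists were not run, since no ID was paired with a product. Alternatives were other scalings, pseudocounts, filters, limits, a block, fewer libraries and leaving out each replicate.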

Additional observations from a re-analysis of the deposited data

How the results depend on the processing

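Membership depended most on the scaling and the limits. FPKM as deposited gave 44 members and rescaling to equal sums (TPM) 38, of which 38 and 36 were among the 196. A limit of 1 in Δrpn-4 gave 451, a limit of 2 gave 77, and a limit of 0.5 on the other mutants gave 77. A pseudocount of 0.1 gave 200, and leaving out any 1 replicate gave 183 to 200, with at least 173 shared. Without a minimum fold, 77 members were higher and 69 lower on lignosulfonate in WT, 58 higher and 46 lower in Δtah-1 than in ΔCclaeA, and 9 lower in Δrpn-4 than in WT on glucose. FPKM as deposited gave 104 members higher in Δrpn-4 than in WT on lignosulfonate, 10 lower in Δrpn-4 than in WT on glucose, and 6 higher and 31 lower in Δtah-1 than in ΔCclaeA. TPM gave 80 and 10 for the first pair, and 24 lower in Δtah-1 than in ΔCclaeA. Leaving out 1 replicate gave 36 to 45 members higher and 33 to 36 lower on lignosulfonate, 12 to 15 higher and 11 to 21 lower in Δtah-1, and 153 to 155 higher and 5 to 6 lower in Δrpn-4 than in WT on glucose. Of 243 alternative values for the medium difference of 27 named members, 0 were reversed, 6 lost the call and 9 gained it. Where a cause is not part of the alternative itself, the cause was not tested.

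The replicate numbers mark no shared culture or day in the labels. Deviations of same-numbered libraries correlated at 0.00, 0.45 and 0.51 between the WT media and at 0.06, 0.08 and -0.11 between Δtah-1 and ΔCclaeA. Between Δrpn-4 and WT on lignosulfonate they correlated at 0.06, 0.28 and 0.03. In each of these contrasts 2 of 3 were best with their own number. None had every correlation clearly above 0, the condition set, so the numbers were not taken as pairs. A batch shared by replicates 2 and 3 of the WT media was not tested. With the replicate number as a block, the counts were the main ones, 42 and 35 between the media, 12 and 15 between Δtah-1 and ΔCclaeA, and 154 and 5 for Δrpn-4 against WT on glucose. With every replicate number in every group, the block leaves the log2 ratios unchanged, so the 2-fold part of a call could not move. The equal counts therefore say little about pairing. The unknown depth limits what can be said of members under 1 FPKM.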
